A study of Mus musculus with 5 samples.

Results

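The fragments described here were almost free of DNA methylation in a non-clonal population of mouse CD8+ T cells and carried methylation in 1 of 2 clones grown from single cells of that kind. Of 161264 restriction fragments with at least 10 molecules in each of 3 libraries, 32808 had a methylation level of 10% or less in the population. Of those, 112 stood at 30% or more in clone 1 with 10% or less in clone 2, and 141 at 30% or more in clone 2 with 10% or less in clone 1. These 253 gained fragments are the subject of the report. The level of a fragment is the share of methylated calls among all its CpG calls in a library, a CpG being a C followed by a G. The clone with the high level is called the gaining clone and the remaining one the other clone. The word gained describes levels between the libraries, and when the methylation arose was not tested. Since all 3 levels chose the fragments, those levels are given as a description and carry no test.

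All libraries hold DNA of primary CD8+ T cells (cytotoxic lymphocytes) of the mouse strain C57BL/6. The labels say that naive splenic T cells were cultured in medium with IL2, a growth factor of T cells, and sorted as individual CD8+ cells that were expanded. The 5 samples comprise a non-clonal population and a pair of replicates for each of clone 1 and clone 2, with 15 cell divisions labelled for the clones. Each clone descends from 1 founder cell, and the labels give neither age nor sex. The replicates of a clone share a file and cannot be told apart, so each clone is 1 library, no value has a spread between replicates, and every test compares libraries rather than conditions. The cell type could not be checked against markers, because fragments carry a number and no gene name. For the same reason no sequence, coordinate or annotation is given.

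In mammalian cells methylation sits mainly on CpGs, where both DNA strands carry it symmetrically. After replication the maintenance enzyme DNMT1 copies the pattern of the parental strand onto the new one, and DNMT3A and DNMT3B can methylate CpGs afresh. Stretches rich in CpGs, known as CpG islands and often found at promoters, stay unmethylated in most cells. A clone starts from the 2 parental copies of a single genome, whereas a population averages over many cells.

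The population library listed 8463942 tagged molecules, clone 1 listed 11969176 and clone 2 listed 8977287. At the gained fragments the median was 20 molecules in the population, 22 in the gaining clone and 21 in the other clone, with 10 the fewest allowed and 55 the most in the gaining clone. Intervals given below are Wilson 95% intervals and cover counting error only.

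Each line below shows 1 recurring molecule pattern, a filled circle for a methylated CpG and an open circle for an unmethylated one, in order along the fragment. The lines are chosen because they show 3 forms that the gained methylation took.
Fragment 1016990, clone 1, plus strand, CpGs 1 to 6: ●●●●●●
Fragment 504718, clone 2, plus strand, CpGs 1 to 7: ●●○●●●●
Fragment 504718, clone 2, minus strand, CpGs 2 to 8: ●○●●●●●
Fragment 606099, clone 1, plus strand, CpGs 1 to 14: ○○○○○○○○●○●○●○
Fragment 606099, clone 1, plus strand, CpGs 1 to 14: ○○○○○○●○●●○○●●
Fragment 606099, clone 1, minus strand, CpGs 2 to 15: ○○○○○○○●○●○●○○
The first pattern is methylated throughout, the second has a single gap that both strands share, and the last set methylates a few CpGs among many.

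Most gained fragments stood at a partial level in the gaining clone. The median level was 36.4% in clone 1 for its 112 fragments and 35.7% in clone 2 for its 141. Of the 253, 167 lay from 30 to under 40%, 44 from 40 to under 50%, 23 from 50 to under 60%, and 19 above that, of which 12 were from 60 to under 70%. The highest was 82.9% in clone 1 and 82.8% in clone 2, and no fragment reached 90%. In the population the median was 6.25% for the clone 1 fragments and 5.80% for the clone 2 fragments, against 0.935% over the 27942 fragments at 10% or less in all 3 libraries. The other clone had medians of 4.29% and 3.75%. Over all 32808 fragments at 10% or less in the population, the population median was 1.15%. In the population the medians of the gained fragments therefore lay nearer the limit of 10% than the median of that class did.

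**Figure D1:**
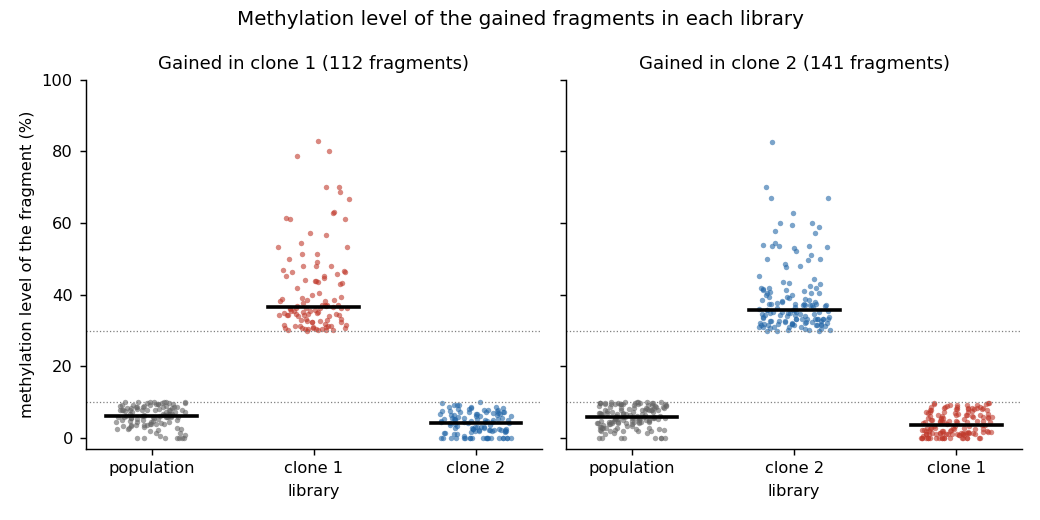
Methylation level (percent of CpG calls) of each gained fragment in the 3 libraries, for the 112 fragments gained in clone 1 (left) and the 141 gained in clone 2 (right). Points are fragments, black lines medians and dotted lines the limits of 10 and 30% that chose them; most points of the gaining clone sit between 30 and 40%.

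Close to the limit of 30% the membership turned on single calls. Fragment 151239 (70 of 233 calls methylated in clone 1) and fragment 878362 (15 of 50) lay just inside, and fragments 747428 (39 of 131) and 746513 (22 of 74) just outside. In clone 2, fragments 422307 (6 of 20) and 625906 (21 of 70) lay just inside, and fragments 115495 (35 of 117) and 787888 (64 of 214) just outside.

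Gained fragments had few CpGs. Their median was 5, with a range of 2 to 31, against 11 for all fragments at 10% or less in the population. Fragments with 2 to 4 CpGs made up 95 of the 253, those with 5 to 9 made up 123, those with 10 to 19 made up 34, and a single one had 20 or more. As a share of the unmethylated fragments of each class, these were 3.59% of 2649, 1.22% of 10055, 0.211% of 16089 and 0.0249% of 4015. The number of calls behind a level moved with the class, from a median of 42 calls in the population for unmethylated fragments with 2 to 4 CpGs to 304 for those with 20 or more, and its part in these shares was not tested. Of the gained fragments, 15 had under 20 calls in the gaining clone, and 24 had 2 CpGs.

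By Fisher's exact test on methylated and other molecules, with Benjamini-Hochberg adjustment over all fragments tested, 20 of the 112 fragments were called higher in clone 1 than in the population, and 17 of the 141 in clone 2. A molecule counted as methylated when over 50% of its observed CpGs were, and calls required adjusted p values under 0.05 with a difference of 20 percentage points. Over all fragments the same calls made up 0.805% of 197730 for clone 1 and 0.891% of 163766 for clone 2, and over fragments at 10% or less in the population 0.323% for either clone. Between the clones, 31 of the 112 were called higher in clone 1, with 1.71% of all 184187 fragments called that way, and 30 of the 141 higher in clone 2, with 2.06%. The rule used these contrasts, so nothing is read from those counts.

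Among the 6 widest gains of each clone, the share of methylated molecules in the gaining clone ran from 50 to 93.8% in clone 1 and from 36.7 to 79.3% in clone 2. At fragment 418992, with 14 CpGs, 14 of 16 clone 1 molecules were methylated (87.5%, interval 64.0 to 96.5), against 0 of 23 population molecules and 0 of 13 from clone 2. Clone 1 alone was high. At fragment 1147768, with 6 CpGs, 45 of 48 clone 1 molecules were (interval 83.2 to 97.9), against 1 of 17 and 0 of 22. No clone 1 molecule with 2 or more observed CpGs was fully unmethylated, and 2 forms recurred. Of 27 plus-strand molecules, 13 read ●●●●● over CpGs 1 to 5 and 6 read ●●○○●, with CpGs 3 and 4 open. Of 21 minus-strand molecules, 7 read ●●●●● over CpGs 2 to 6 and 5 read ●○○●●, with the same gap. CpGs 3 and 4 accordingly stood at 61.0% and 61.9% in clone 1, and the other four CpGs at 95% or more.

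At fragment 1479265, with 3 CpGs, clone 1 had 32 methylated molecules of 42, the population 0 of 20 and clone 2 had 0 of 23. At fragment 478128, with 4 CpGs, these were 26 of 38, 2 of 22 and 1 of 21. At fragment 1016990, with 7 CpGs, they were 23 of 37 (interval 46.1 to 75.9), 1 of 20 and 0 of 30. Its clone 1 molecules were of 2 kinds only, 23 fully methylated and 13 fully unmethylated among those with 2 or more CpGs observed. Fragment 1245048, the sixth of the widest gains in clone 1, had 3 CpGs and, in the same order, 8 of 16, 1 of 24 and 0 of 10. In these 4 fragments, molecules counted as methylated coexisted in clone 1 with molecules that were not. The latter could still be methylated at up to 50% of their observed CpGs. At fragment 1245048, 21 of 30 clone 1 calls were methylated.

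In clone 2 the widest gain was at fragment 1075275, with 7 CpGs, where 7 of 11 molecules of clone 2 were methylated (interval 35.4 to 84.8), against 0 of 13 in each remaining library. At fragment 1099963, with 16 CpGs, clone 2 had 18 of 26, the population 1 of 27 and clone 1 had 0 of 17. At fragment 1514507, with 8 CpGs, these were 18 of 26, 1 of 14 and 0 of 10. The gains of clone 2 thus also left part of the molecules not counted as methylated, though these could hold methylated calls. At fragment 1075275, 24 of 29 clone 2 calls were methylated, and at fragment 1512602, 32 of 51. In clone 2, 6 of 12 molecules of fragment 936915 and 11 of 30 of fragment 1512602 were methylated, while the population had none among 11 and 20. Their intervals, 25.4 to 74.6% and 21.9 to 54.5%, are wide at this depth.

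Within the gained fragments, single CpGs did not share 1 level. At 143 fragments with at least 4 CpGs that had 10 or more calls each in the gaining clone, 129 had a CpG at 20% or less, 62 had a CpG at 80% or more, and 58 had both. The levels of their CpGs spanned under 30 points in 8 of the 143. Over 1090 such CpGs of fragments with 4 or more CpGs, 393 (36.1%) stood at 20% or less in the gaining clone, 128 (11.7%) between 20 and 40%, 278 (25.5%) at 40 to 60%, 195 (17.9%) between 60 and 80% and 96 (8.81%) at 80% or more. The class between 20 and 40% held fewer CpGs than the classes on either side of it.

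**Figure D2:**
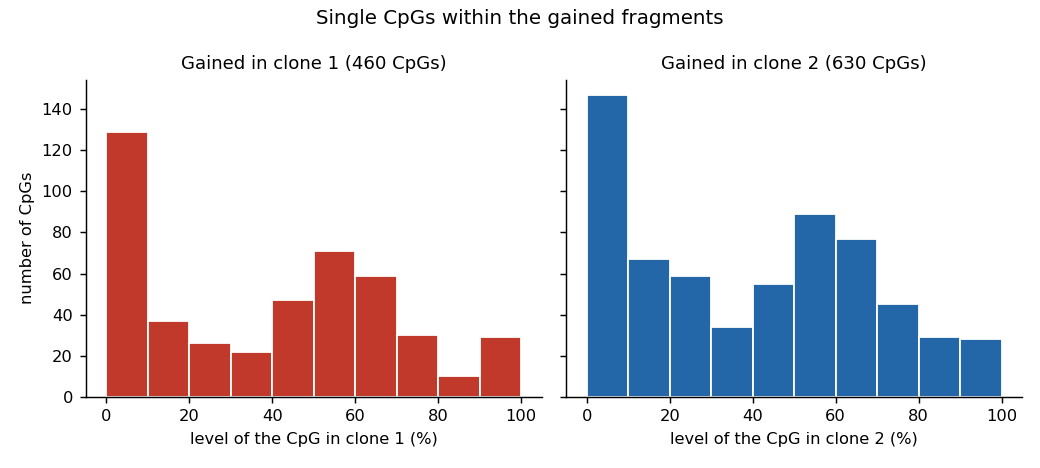
Methylation level of single CpGs in the gaining clone (x axis, percent; bars count CpGs in steps of 10 points), for gained fragments with 4 or more CpGs and CpGs with 10 or more calls: 460 CpGs for clone 1 (left) and 630 for clone 2 (right). Both panels have a peak near 0 and another between 50 and 70%, and clone 1 rises again above 90%.

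CpGs that were high in the gaining clone carried slightly more methylation elsewhere. Where the gaining clone was at 20% or less, 4.31% of 6148 population calls and 3.07% of 7361 calls of the other clone were methylated. Where it was at 40 to 60%, these were 7.02% of 4716 and 5.14% of 5483, and where it was at 80% or more, 10.4% of 1535 and 7.39% of 1665. These shares come from the libraries that chose the fragments and are a description.

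Molecules with both states were the commonest kind in the gaining clone. Among 5175 molecules with 2 or more observed CpGs, 455 (8.79%) were fully methylated, 1190 (23.0%) fully unmethylated and 3530 (68.2%) mixed. In the population, mixed molecules were 964 of 4510 (21.4%) and fully methylated ones 14, spread over 12 fragments. The other clone had 804 mixed of 4807 (16.7%) and a single fully methylated molecule. Because the rule used these same calls to set the gaining clone apart, the shares are a description. At the 27942 fragments low in all 3 libraries, mixed molecules were 11.7% in clone 1, 12.3% in clone 2 and 11.6% in the population. Fully methylated molecules were 11.8% of 2329 in clone 1 at its own fragments and 6.32% of 2846 in clone 2 at its own, a difference that was not tested.

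All-or-none fragments were the minority. Of 179 gained fragments with at least 4 CpGs and 10 molecules with 2 or more observed CpGs, 8 had 80% or more of these molecules in a single state, and 97 had no fully methylated molecule. In those 8 the share of methylated molecules ran from 36.4 to 68.4%, and the interval held 50% in 7 of them. One of them, fragment 1306617 in clone 2, named here after its values were seen, had 11 fully methylated and 11 fully unmethylated molecules, while none of 17 population molecules and none of 15 from clone 1 were methylated.

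At the fragments named next, mixed molecules repeated the same patterns. The pattern and gap measures here and below were chosen after the data were seen. At fragment 606099, with 15 CpGs, the level was 30.3% in clone 1, 6.62% in the population and 1.87% in clone 2, yet only 1 of 35 clone 1 molecules counted as methylated. CpG 9 was methylated on 27 of 27 clone 1 molecules and CpG 13 on 30 of 31, while CpGs 1 to 3 and 6 were methylated on none. CpG 11 was methylated on 20 of 32 and CpG 7 on 16 of 30. The recurring forms are those printed at the start, 1 with CpGs 9, 11 and 13 methylated and another with CpGs 7, 9, 10, 13 and 14. Each appeared on 3 of 15 plus-strand molecules in full, and the first also on 4 of 20 minus-strand molecules.

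Fragment 1210614, with 9 CpGs, behaved likewise in clone 1. CpG 6 was methylated on 32 of 33 molecules and CpG 9 on 18 of 18, CpGs 2 and 4 on 16 of 36 and 15 of 36, and CpGs 1 and 3 on none. On the plus strand 6 of 17 molecules read ○○○○○●○○ over CpGs 1 to 8 and 3 read ○●○●○●○○. On the minus strand 5 of 21 read ○○○○●○○● over CpGs 2 to 9 and 4 read ●○●○●○○●. The strands thus carried the same pair of forms. In clone 2 all 11 minus-strand molecules and 13 of 15 plus-strand molecules were open at every compared CpG.

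In clone 2, fragment 588285, with 9 CpGs, had 5 of 10 plus-strand molecules with ○●●○○○●● over CpGs 1 to 8 and 5 of 14 minus-strand molecules with ●●○○○●●○ over CpGs 2 to 9. A second form, methylated at CpGs 4 and 5, was carried by 3 molecules of either strand. On the minus strand the forms were complementary at CpGs 2 to 5. Fragment 189685, with 6 CpGs, was methylated at CpG 2 on 19 of 19 clone 2 molecules, against 1 of 11 population molecules and 0 of 28 of clone 1, and at CpG 4 on 9 of 19. Its levels were 40% in clone 2, 6.78% in the population and 1.46% in clone 1.

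Other fragments with the highest share of mixed molecules showed the same kind of contrast. Fragment 1150581, with 8 CpGs, was methylated at CpG 3 on 12 of 12 clone 2 molecules and at CpGs 6 to 8 on none of 12 or 13. Its CpG 4 was methylated on 7 of 13 clone 2 molecules. In clone 1, 7 of 19 minus-strand molecules read ○○●○○○○ over CpGs 2 to 8, so CpG 4 was methylated in both clones. Fragment 480870, with 7 CpGs, was methylated in clone 1 at CpG 4 on 16 of 27 molecules and at CpG 5 on 2 of 26. Fragment 1239765 had 13 CpGs and a clone 1 level of 38.2%, all of its 12 molecules with 2 or more observed CpGs being mixed.

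At the fragments with a level nearest 50%, molecules in a single state and mixed ones both occurred. Fragment 124678, at 49.3% in clone 1, had 3 fully methylated, 6 fully unmethylated and 20 mixed molecules. Fragment 1040071, at 53.2% in clone 1, had 3, 10 and 19, and its CpG 3 was methylated on 2 of 29 molecules while the other six lay at 58.6 to 65.5%. Fragment 120474, at 50% in clone 2, had 0, 1 and 31, and fragment 45754, at 49.6%, had 3, 2 and 27. Fragments 582092 in clone 1 and 1206752 in clone 2, at 48% and 50%, had 11 molecules each and 4 fully unmethylated ones.

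At part of the fragments, methylated molecules shared the same unmethylated CpGs. At fragment 504718, CpG 3 was unmethylated on 22 of 22 methylated molecules of clone 2, 12 of the plus strand and 10 of the minus strand, while the remaining CpGs stood at 66.7 to 83.3%. At fragment 1514507, CpG 6 was unmethylated on 14 of 14, with 7 from either strand, and at fragment 1099963, CpG 10 on 10 of 11. Among 109 gained fragments with at least 4 CpGs and 5 methylated molecules, 48 had at least 1 CpG that was methylated on 20% or less of these molecules. Such CpGs numbered 79 of 567. They include CpGs at the ends of fragments and in open runs, such as CpGs 6 to 9 of fragment 882, and not only single gaps. Of the 62 seen on both strands, 41 were at 20% or less on each strand by itself. No minimum number of molecules per strand was set, so 1 open molecule could suffice on a strand. At CpG 22 of fragment 1034457, for example, the plus strand showed 1 molecule and the minus strand 5.

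**Figure D3:**
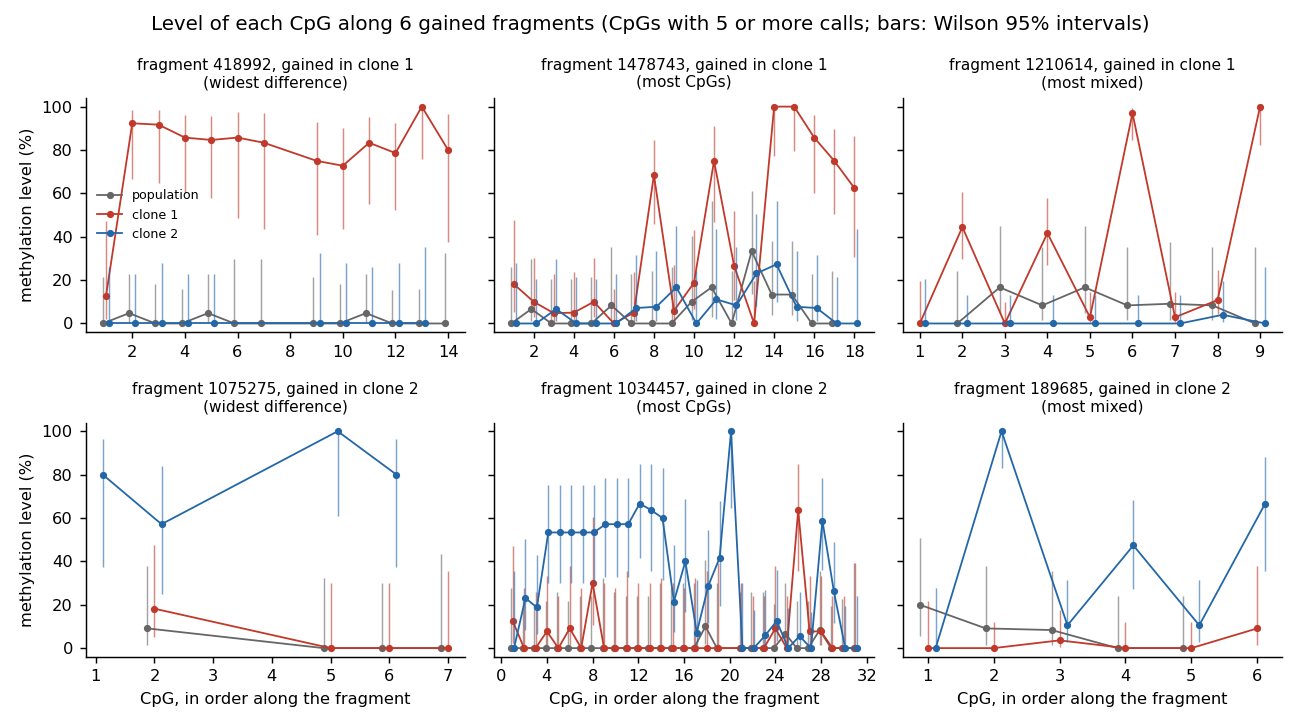
Methylation level (percent) of each CpG along 6 gained fragments, in order along the fragment, for the population (grey), clone 1 (red) and clone 2 (blue); bars are Wilson 95% intervals and CpGs with under 5 calls are left out. The upper row was gained in clone 1 and the lower row in clone 2; at fragments 1210614 and 189685 single CpGs reach 97.0 to 100% beside CpGs near 0.

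Across the gained fragments a few patterns covered most molecules. Patterns were compared on 1 strand over the CpGs that at least 70% of its molecules showed, with 3 or more such CpGs and 8 molecules drawn per fragment, which 133 fragments allowed. The 8 molecules held a median of 4 patterns, and the 2 commonest patterns covered 75% or more of them at 86 fragments (64.7%). For comparison, 5681 fragments with 4 or more CpGs stood at 30 to 60% in the population. They had a median of 5 patterns in the population, where 27.8% of 3664 reached that cover, and of 3 in clone 1 and clone 2, where 73.4% and 73.6% did. By clone, the gained fragments had a median of 3 patterns in clone 1, where 71.4% of 56 reached that cover, and of 4 in clone 2, where 59.7% of 77 did. They were compared over a median of 5 CpGs, against 4 for the comparison fragments. The comparison fragments could have any level in the clones, whereas gained fragments stood at 30% or more in the gaining clone. The part of these differences in the numbers was not tested.

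Patterns with at least 1 methylated CpG that recurred on 3 or more molecules of a strand were found at 122 of the 133 fragments. Of 246 such patterns 20 were methylated at every compared CpG and 226 at part of them. At 52 fragments both strands had such a pattern. A match needed 3 or more CpGs shared by the strands, so fragments sharing 2 counted as unmatched whatever their patterns. Counted so, the commonest pattern was identical on the shared CpGs at 33 of the 52. At 41 of the 52 at least 1 recurring pattern matched. These counts cover only fragments where both strands had such a pattern. In the gaining clone 201 gained fragments had at least 5 molecules on each strand. Of those, 178 had a level of 20% or more on both strands and 143 had methylated molecules on both. The levels of the strands differed by over 30 points at 26 of the 201. The files list plus-strand and minus-strand molecules separately.

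Reads per molecule and library depth are given as facts beside these results, and their part in them was not tested. In the gaining clone 31.9% of 1756 methylated molecules and 35.9% of 4335 others had 2 or more reads. The median log2 ratio of molecules in clone 1 over clone 2 was 0.20 at the clone 1 fragments, against 0.10 at fragments low in all 3 libraries, and the ratio of clone 2 over clone 1 was 0 at the clone 2 fragments, against -0.10.

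The rule applied to the plus strand alone allowed a test on molecules it had not used, those of the minus strand. It chose 57 fragments for clone 1 and 76 for clone 2 (22 and 38 of them also chosen on both strands together), of which 39 and 29 had at least 10 minus-strand molecules in the clone and in the population. On the minus strand the gaining clone had the higher level at 31 of 39 and 28 of 29, and a level higher by 20 points or more at 21 and 15. Median minus-strand levels were 30.6% in clone 1 and 9.52% in the population for the clone 1 fragments, and 33.2% and 11.8% for the clone 2 fragments, against 40.4% and 40% on the plus strand that chose them. The level held at 30% or more on 20 of 39 and 19 of 29, and the population stayed at 10% or less on 22 and 14. Reference fragments were at 10% or less on the plus strand in all 3 libraries. On their minus strand clone 1 was higher by 20 points or more at 13 of 5056 and lower by as much at 9. For clone 2 these were 14 and 7 of 4673. The median minus-strand population levels of the reference were 0.971% and 0.988%, below those of the chosen fragments. It was not matched to the chosen fragments in level, number of CpGs or calls.

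By Fisher's exact test on minus-strand molecules, 2 of the 39 passed in clone 1 and 4 of the 29 in clone 2, with 0 lower. Over all fragments tested on that strand 0.300% passed in clone 1 and 0.263% in clone 2, and over fragments at 10% or less in the population on the plus strand 0.197% and 0.214%. Fragment 991434, with 4 CpGs and named here for its call, was methylated on 17 of 27 minus-strand molecules of clone 1, against 0 of 11 of the population and 0 of 13 of clone 2, with a Benjamini-Hochberg adjusted p of 0.0485 by the exact test. Fragment 120474, with 6 CpGs, was methylated on 10 of 14 of clone 2, against 0 of 14 and 0 of 13, with an adjusted p of 0.0389 by that exact test. The minus strands of the chosen fragments held 10 to 29 molecules in the gaining clone. The share of methylated molecules, which the exact test compares, was higher by 20 points or more at 12 of 39 and 13 of 29, fewer than by level. With the strands exchanged, 1 of 30 passed in clone 1 and 1 of 32 in clone 2, where 0.246% of all fragments passed for each and 0.165% and 0.0903% of those at 10% or less in the population on the minus strand, while the level was higher in the gaining clone at 24 of 30 and 28 of 32.

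Fragments next to the gained ones carried part of the difference. Neighbours are fragments whose number is 1 above or below, read here as lying side by side along the genome, and their calls entered no part of the rule. Of 139 neighbours with at least 10 molecules in both clones, 103 had a higher level in the gaining clone than in the other one, 33 a lower level and 3 the same, with a median difference of 6.72 points. A difference of 20 points or more was found at 24 in that direction and at 3 in the opposite one. By Fisher's exact test 11 were called higher in the gaining clone and 1 lower. For clone 1 these were 6 of 64, where 1.71% of all fragments and 0.123% of those next to fragments low in all 3 libraries passed, and for clone 2 they were 5 of 75, against 2.06% and 0.138%. At fragments 2 to 10 numbers away, both clones together, the share called higher ran from 1.11% (8 away) to 7.21% (2 away). The share called lower there ran from 0% (7 away) to 5.41% (10 away).

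Neighbours also had higher levels in the population than their counterparts. Of 118 with at least 10 population molecules, 68 stood at 10% or less, 50 between 10 and 90% and 0 at 90% or more, while 94.0% of 11141 fragments next to fragments low in all libraries stood at 10% or less. Most called neighbours were in the middle class, 5 of 24 for clone 1 and 4 of 26 for clone 2, and none was in the class at 90% or more, which held no neighbour and where 0.714% and 0.749% of all fragments were called. Over all fragments between 10 and 90% in the population, 4.50% were called higher in clone 1 than in clone 2 and 5.66% higher in clone 2. Among neighbours at 10% or less, 1 of 33 and 0 of 35 were called, against 0.168% and 0.177% of all such fragments, and 19 of 33 and 30 of 35 had the higher level in the gaining clone.

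**Figure D4:**
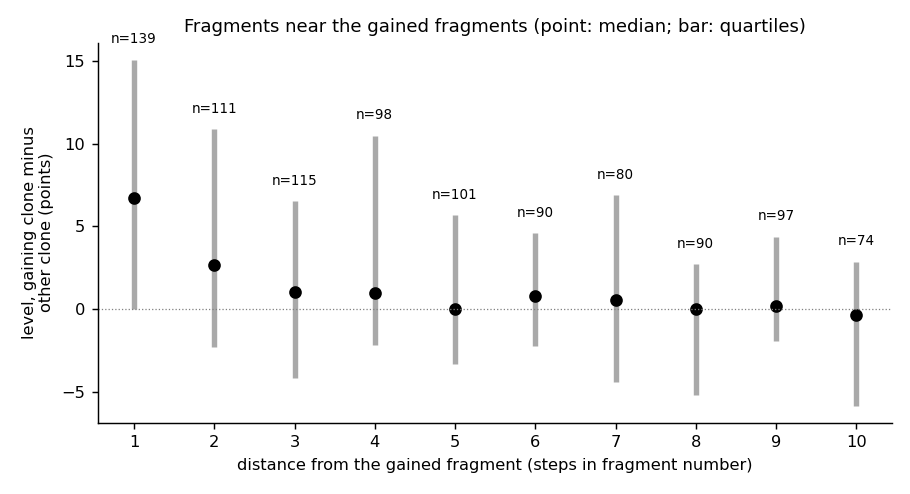
Difference in methylation level between gaining and other clone (y axis, percentage points) at fragments 1 to 10 steps in number away from a gained fragment (x axis), gained fragments left out; points are medians, bars run from the lower to the upper quartile and n counts fragments. The median is 6.72 points at 1 step, 2.67 at 2 steps and within 1.03 points of 0 from 3 steps on.

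The widest difference among neighbours was at fragment 1099962, beside fragment 1099963, where 11 of 14 molecules were methylated in clone 2, none of 11 in clone 1 and 1 of 7 in the population library. At fragment 625922, 21 of 27 were methylated in clone 1, 2 of 24 in clone 2 and 4 of 16 in the population library. At fragment 418991, beside a fragment with one of the widest gains of clone 1, these were 22 of 30, 4 of 26 and 0 of 21. At fragment 406289, clone 2 had 20 of 40, clone 1 had 0 of 39 and the population 4 of 19. In each of these the gaining clone stood above both remaining libraries.

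Some gained fragments lay close together. In the same clone 7 pairs of consecutive gained fragments were at most 10 numbers apart, and no such pair joined fragments gained in different clones. How often other unmethylated fragments lie that close was not counted, so nothing is read from these counts. Fragments 504718 and 504719 adjoin, and clone 2 had 23 of 29 and 18 of 30 methylated molecules there. The population had none among 12 and 33, and clone 1 none among 13 and 19. Fragments 806531 and 806532 adjoin as well, with levels of 37.4% and 36.8% in clone 2, 9.46% and 2.25% in the population and 8.70% and 3.75% in clone 1. In clone 1, fragments 991434, 991437 and 991441, the last 2 named after their values were seen, had 36 of 55, 6 of 25 and 12 of 18 methylated molecules, with 0 in the population at each. At the called neighbour 991435, with 11 CpGs, 23 of 35 molecules were methylated in clone 1, 8 of 29 in the population library and none of 23 in clone 2.

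Fragments with many CpGs were rare among the gained ones. Fragment 1034457, with 31 CpGs the largest, had a level of 31.1% in clone 2, 5.26% in clone 1 and 1.42% in the population. In clone 2, CpGs 4 to 8 were each methylated on 8 of 15 molecules and CpG 22 on 0 of 18. Its gain covered part of the CpGs and was not confined to a single stretch, CpG 28 being methylated on 10 of 17 clone 2 molecules. CpG 26 had the opposite order, with 7 of 11 in clone 1 and 1 of 18 in clone 2. Fragment 1478743, with 18 CpGs, stood at 32.8% in clone 1, 5.53% in the population and 6.70% in clone 2, with CpGs 14 and 15 methylated on 13 of 13 and 15 of 15 clone 1 molecules and CpG 13, next to them, on 0 of 16. Fragment 608760, also with 18 CpGs, stood at 37.3% in clone 2, 2.34% in the population and 2.76% in clone 1. Fragment 386652, with 15 CpGs, stood at 32.7% in clone 1, where CpGs 3 to 8 were methylated on 10 to 12 of 19 to 21 molecules and CpG 9 on 0 of 21.

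In number, gains in a single clone were 0.341% of unmethylated fragments for clone 1 and 0.430% for clone 2. Another 196 fragments (0.597%) were at 30% or more in both clones. Whatever the level in clone 2, 464 unmethylated fragments were at 30% or more in clone 1, and 156 of them lay over 10 and under 30% in clone 2. For clone 2 there were 513 fragments, with 176 over 10 and under 30% in clone 1. The mirror class, at 90% or more in the population and a clone and at 70% or less in the remaining clone, had 541 fragments for clone 1 and 470 for clone 2, or 0.712% and 0.619% of 75936 methylated fragments. These shares have different denominators and were not tested against each other.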

How the data were processed

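The authors deposited, per library, a table with 1 line per molecule: a fragment number, a strand, a molecular tag, a string of CpG calls and a count of reads, which is not normalized. Per the submitters' processing notes the reads were handled with Bismark on mm9, in versions not given in the sources used here. The submitters' labels name the replicates of each clone, which share 1 file. The meaning of the last column is not given in the sources used here. From these tables molecules and calls were summed per fragment with Python 3.11.15, numpy 2.4.6, pandas 2.3.3, numba 0.67.0 and scipy 1.17.1. Every molecule counted once, whatever its reads. Fragments needed 10 molecules in each library. Fisher's exact tests ran over all fragments with 10 molecules in both libraries compared, with Benjamini-Hochberg adjustment, and were checked on simulated data. The text names, per clone, the widest gains, those with most CpGs, those with most mixed molecules, those nearest 50% and those beside the threshold, all members with adjacent numbers and the called neighbours with the largest differences. The members and lists were chosen with earlier results of these data known. Fragment numbers are taken to follow genome order, which no source states.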

Additional observations from a re-analysis of the deposited data

How the results depend on the processing

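No paired analysis was possible because the replicates of each clone share 1 file and the population is a single sample, and for the same reason no replicate could be left out. Of 51 values under alternative settings, 32 moved, which for a count means by over 1.5 times and for a median or share means beyond its 95% interval for counting error or rank. The other 19 stayed within those limits, which still allow the counts to rise from 112 to 158 and from 141 to 210 without the first and last CpG. Counts below are for clone 1 and clone 2, then the median level in the gaining clone and the share of molecules in one state, where these moved. With at least 20 molecules they were 35 and 38, 34.8% and 33.9%, and with at least 5 they were 181 and 236. A gain to 50% or more gave 20 and 22, 58.2% and 51.9%, and a limit of 5% in the population and the other clone gave 25 and 30, with a share of 40.6%. With the level as the share of methylated molecules there were 279 and 337 fragments, of which 59 and 55 are among those reported, and a median of 43.1%. The plus strand gave 57 and 76, 39.1% and 27.8%, and the minus strand 63 and 64, 39.8% and 24.5%. Molecules with at least 2 reads gave 17 and 12, 38.5% and 27.0%, of only 3099 unmethylated fragments. Without the first and last CpG the median was 37.4% and the share 35.0%, and 71 and 83 of the fragments reported were among those found. Tested at their deepest CpG, 19 of 124 neighbours were called, and with the strands exchanged 2 of 62 fragments were called on the strand not used by the rule. Several settings change the fragments or molecules tested by construction, and the cause of the other shifts was not tested. At about 20 molecules per fragment, membership near a limit turns on few calls.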
